A study of Mus musculus with 6 samples.

Results

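The NR4A nuclear receptors are a family of 3 genes, Nr4a1 (Nur77), Nr4a2 (Nurr1) and Nr4a3 (Nor1). They were picked by name from a table of raw counts for 55335 gene identifiers, in which each symbol matched 1 identifier. The cells were P14 CD8+ T cells, which carry a transgenic T cell receptor for the GP33-41 peptide. C57BL/6 mice, labelled as 10 weeks old, had received B16-GP33-41 melanoma cells, which present that peptide, and were given the P14 cells on day 11 after implantation. Donor P14 cells were then sorted by flow cytometry from the tumors (3 libraries) and from the spleens of the same tumor-bearing mice (3 libraries). All groups thus share the strain, the transgene, the tumor burden and the sort. The labels do not give the day of sorting, the number of mice behind a library or which tumor and spleen library share a mouse. Tumor leukocytes were additionally recovered over Percoll and spleen cells were not, so tissue and handling cannot be told apart. The library codes in the labels also end alike within each tissue and differently between tissues; if they mark a preparation, it cannot be told apart from tissue.

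NR4A proteins are transcription factors of the nuclear receptor class that act without a known hormone, so their activity largely follows how much of them is made. In T cells their genes belong to the immediate early class: they are switched on within the first hours of antigen receptor signalling, through calcium, calcineurin and MEF2 factors and through kinase and cyclic AMP routes that act on CREB-type factors. NR4A proteins bind DNA as single molecules or in pairs, and NR4A1 and NR4A2 can also pair with retinoid X receptors. Nr4a1 is known for its role in deletion of self-reactive thymocytes and as the base of reporters of receptor signalling. In CD8+ T cells of tumors and chronic infection the family is known as part of the exhaustion programme, alongside PD-1 and TOX.

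In mm10, Nr4a1 (ENSMUSG00000023034.7) lies on the plus strand of chromosome 15 at 101254269 to 101274795, Nr4a2 (ENSMUSG00000026826.13) on the minus strand of chromosome 2 at 57106830 to 57124003, and Nr4a3 (ENSMUSG00000028341.9) on the plus strand of chromosome 4 at 48045153 to 48086447. All are protein-coding, and their annotated exons cover 3509, 4059 and 5987 bases. No other annotated gene overlaps any of them on either strand. Of the 50-base windows of their annotated transcripts, the read length used, 0 of 3499 for Nr4a1, 0 of 4146 for Nr4a2 and 0 of 5986 for Nr4a3 also occur in another member. Outside the family, 9 windows of Nr4a3 (0.15%) match another annotated transcript, and none of the other two members do. Reads of this length can therefore tell the members apart by sequence.

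The promoters are shown because factors that bind the cyclic AMP response element are textbook inducers of the family. The part of such factors in the rise of the members was not tested. Each sequence runs from 250 bases before to 50 bases after the start site in RefSeq (GRCm38.p6), in the direction of the gene. Capitals mark the core of the cyclic AMP response element, TGACG, which reads CGTCA where it lies on the opposite strand, and in Nr4a2 also a match to the MEF2 site. The windows lie at chr15:101266596-101266895 on the plus strand for Nr4a1, chr2:57123954-57124253 on the minus strand for Nr4a2 and chr4:48045055-48045354 on the plus strand for Nr4a3.
Nr4a1: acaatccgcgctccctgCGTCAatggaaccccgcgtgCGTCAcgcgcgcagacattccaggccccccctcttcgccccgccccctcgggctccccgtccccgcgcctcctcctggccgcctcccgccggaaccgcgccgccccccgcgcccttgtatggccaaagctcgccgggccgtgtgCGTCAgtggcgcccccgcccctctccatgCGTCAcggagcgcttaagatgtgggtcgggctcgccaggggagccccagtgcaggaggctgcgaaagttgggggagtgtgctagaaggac
Nr4a2: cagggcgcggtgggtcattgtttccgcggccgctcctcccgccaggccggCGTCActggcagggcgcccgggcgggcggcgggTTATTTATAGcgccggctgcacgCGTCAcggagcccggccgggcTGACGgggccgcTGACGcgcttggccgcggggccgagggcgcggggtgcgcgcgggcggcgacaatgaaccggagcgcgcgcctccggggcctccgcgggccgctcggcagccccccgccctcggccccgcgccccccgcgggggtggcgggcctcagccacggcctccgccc
Nr4a3: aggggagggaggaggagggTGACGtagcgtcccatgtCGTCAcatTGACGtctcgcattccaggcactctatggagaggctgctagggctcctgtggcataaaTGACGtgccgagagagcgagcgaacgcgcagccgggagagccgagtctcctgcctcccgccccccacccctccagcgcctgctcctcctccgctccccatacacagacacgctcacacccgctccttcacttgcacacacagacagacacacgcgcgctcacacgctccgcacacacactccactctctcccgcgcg

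Each of the 3 promoters held 4 copies of TGACG, counted on both strands. Of 32851 promoter windows of this length in the RefSeq table, 20.8% held at least 1 copy and 76 (0.231%) held 4 or more. The motif contains a CpG, and the windows were rich in G and C (72.3% for Nr4a1, 81.7% for Nr4a2 and 64.7% for Nr4a3). Among the 9690 windows with at least 60% G and C, 0.557% held 4 or more copies. With the start site as 0, the copies in Nr4a1 began at -233, -213, -69 and -40 and all lay on the strand opposite to the gene. In Nr4a2 they began at -200 and -144 on the opposite strand and at -123 and -111 on the strand of the gene. In Nr4a3 they began at -231, -205 and -147 on the strand of the gene and at -213 on the opposite strand.

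No window held the full palindrome TGACGTCA, which 1.79% of all windows hold. Nr4a2 alone had a match to the MEF2 site (3.19% of all windows), at -167 to -158, and a match to the TATA letters TATAAA that overlaps it on the opposite strand (13.6% of all windows). The NFAT core GGAAA occurred once, in Nr4a2, where 61.3% of all windows hold it. The AP-1 site TGANTCA (7.81%), the CArG box (1.63%), the EGR site GCGTGGGCG (0.612%) and the NGFI-B response element AAAGGTCA (1.51%), which NR4A proteins bind, were in none of the 3 windows. These are matches of letters within 300 bases of 1 start site per gene. Nr4a1 has annotated exons upstream of its window. The annotated Nr4a3 gene starts at 48045153, inside its window and before the RefSeq start site. No other start site, intron or distal element was searched.

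**Figure D1:**
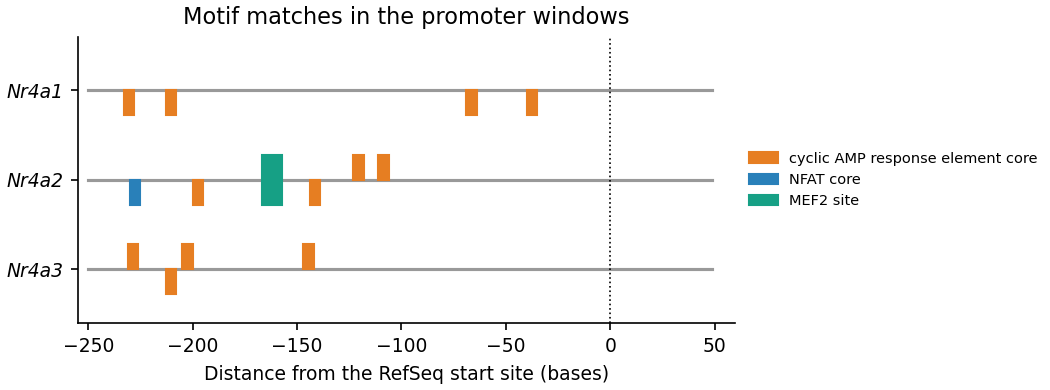
Positions of motif matches in the promoter windows of Nr4a1, Nr4a2 and Nr4a3, by distance in bases from the RefSeq start site (dotted line). Boxes above a line lie on the strand of the gene, boxes below on the opposite strand, and the MEF2 box spans both. Each gene has 4 orange boxes, and Nr4a2 alone has MEF2 and NFAT matches.

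Library totals ranged from 35095261 to 38263483 counts, and values are given as CPM, counts scaled to a common library total. The upper limit for 0 counts, taken as 3 counts, is 0.0855 CPM in the shallowest library and covers counting error only. T cell transcripts were abundant in both tissues: Cd8a averaged 645 ± 21.4 CPM in tumor, against 364 ± 6.62 CPM in spleen, and Cd3e, a chain of the T cell receptor complex, 594 ± 7.395 CPM in tumor, against 634 ± 4.66 CPM in spleen (SD, n = 3 each). Of 8 CD8+ T cell identity genes, Cd8a alone rose, 3 fell (Cd8b1 by 0.62, Cd247 by 0.32 and Cd2 by 0.21 on the log2 scale) and 4 were not called. Cd8b1 averaged 751 ± 36.9 CPM in tumor, against 1174 ± 12.01 CPM in spleen. Markers of other cells differed between tissues. B cell markers summed to 30.3 to 33.3 CPM in tumor and 1595 to 1624 CPM in spleen, where Cd74 was the highest in both, and macrophage and monocyte markers to 31.3 to 31.9 CPM in tumor and 238 to 250 CPM in spleen. All 12 genes of each of these lists fell in tumor, as did 6 of 6 tested neutrophil and 7 of 7 dendritic cell markers. Cr2 of B cells, Elane of neutrophils, and Clec9a and Siglech of dendritic cells were the only genes of these lists with 0 counts in tumor. Dendritic cell markers summed to 57.3 to 63.3 CPM in tumor and 482 to 484 CPM in spleen. In tumor that sum was mostly Itgax (39.4 CPM) and H2-Ab1 (14.2 CPM). Among B cell markers, Cd74 kept 19.2 CPM and Cd79b 7.43 CPM in tumor. Melanoma markers were low, at 9.65 to 10.9 CPM in tumor and 19.4 to 21.4 CPM in spleen, and mostly Pmel (8.54 CPM in tumor, 19.8 CPM in spleen). Most of the sparse other melanoma markers ran the other way: Tyrp1 had 64 tumor counts and 0 spleen counts, and Dct 51 and 1 (called higher). Mlana had 19 and 2, Sox10 16 and 2, and Tyr 5 and 2. Mitf, with 41 tumor counts and 65 spleen counts, ran the way of Pmel and was not called. Markers of CD4+ and regulatory T cells summed to 358 to 406 CPM in tumor and 117 to 119 CPM in spleen, a sum carried by Il2ra (229 CPM in tumor, 36.7 CPM in spleen) and Ctla4 (102 CPM in tumor, 22.1 CPM in spleen), which activated CD8+ T cells also express. Cd4 (1.07 CPM in tumor, 7.52 CPM in spleen) and Zbtb7b (14.7 CPM in tumor, 32.7 CPM in spleen), which mark the CD4+ lineage, fell, and Foxp3 was not called. Cd40lg, also in this list, rose (20.1 CPM in tumor, 8.66 CPM in spleen). Of these 6 genes, 3 thus rose, 2 fell and 1 was not called. Erythroid and platelet markers summed to 131 to 144 CPM in tumor and 115 to 116 CPM in spleen. Of these 6 genes, 3 rose, with Hba-a1 the highest in both tissues, and 3 fell. NK cell markers summed to 35.5 to 41.8 CPM in tumor and 58.2 to 61.1 CPM in spleen, where 1 rose, 3 fell and 2 were not called. In bulk RNA, fewer cells of a type and less RNA per cell cannot be told apart.

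All 3 members were higher in tumor P14 cells than in spleen P14 cells, and no library of either tissue overlapped the other. Nr4a1 had 548, 534 and 495 CPM in the tumor libraries (replicates 1, 2 and 3), against 20.8, 21.4 and 21.7 CPM in the spleen libraries. It was thus already well above the counting floor in spleen, with 761 to 805 counts a library, and the lowest tumor library was far above every spleen library. The rise of Nr4a1 was 25.2-fold (log2 fold change 4.65, SE 0.07, adjusted p = 2.2e-12, edgeR quasi-likelihood test with Benjamini-Hochberg adjustment over 19783 genes).

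Nr4a2 had 155, 168 and 169 CPM in tumor, against 2.52, 1.99 and 2.14 CPM in spleen. The spleen values rest on 92, 75 and 75 counts. It had the largest fitted rise of the family, 75.5-fold (log2 fold change 6.24, SE 0.09, adjusted p = 1.5e-12). Nr4a3 had 119, 106 and 84.98 CPM in tumor, against 1.97, 1.97 and 1.60 CPM in spleen, where 72, 74 and 56 counts were seen. Its rise was 57.1-fold (log2 fold change 5.84, SE 0.16, adjusted p = 1.1e-10). Across the whole table, 70.7% of the 19783 genes tested were called in either direction, 34.8% higher and 35.9% lower in tumor, and 74.5% did not overlap between tissues. A call alone therefore does not set the family apart from other genes, and the size of the change is the more informative value. By size, Nr4a2 ranked 25, Nr4a3 38 and Nr4a1 87 among all genes tested. Among the 12650 protein-coding genes tested they ranked 21, 33 and 70. The median log2 fold change of all tested genes was -0.02.

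Markers of B cells and macrophages moved the other way in the same libraries. When libraries were scaled to 8 genes of CD8+ T cell identity in place of all genes, the log2 fold changes were 4.70 for Nr4a1, 6.28 for Nr4a2 and 5.88 for Nr4a3. Leaving out each library in turn gave 4.63 to 4.71 for Nr4a1, 6.17 to 6.34 for Nr4a2 and 5.72 to 5.98 for Nr4a3. The part that RNA of other cells plays in the spleen values was not tested.

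**Figure D2:**
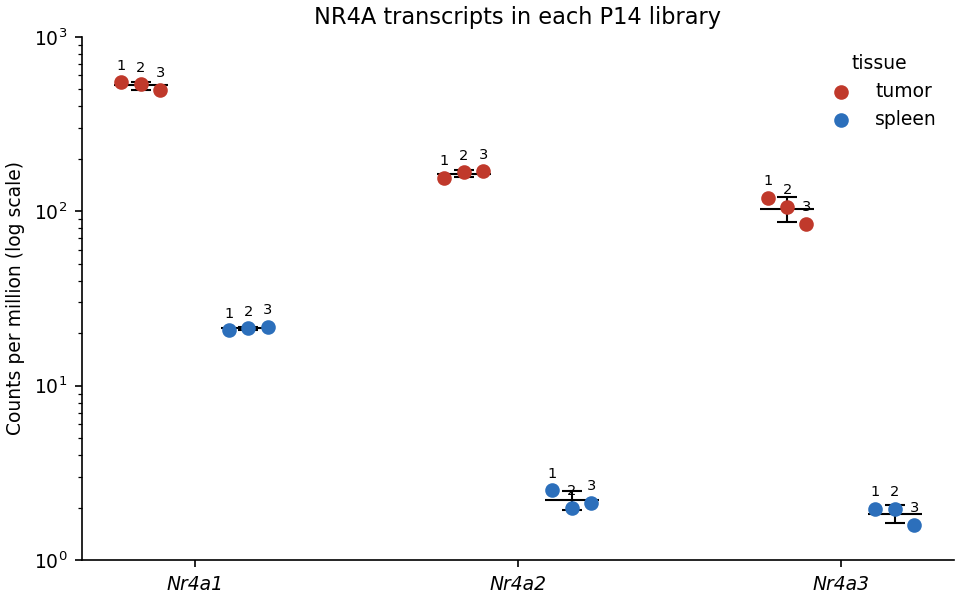
CPM of Nr4a1, Nr4a2 and Nr4a3 (log axis) in each of the 3 tumor and 3 spleen libraries, with replicate numbers; the long bar is the mean and the error bar the SD. Tumor libraries lie at 84.98 CPM or more and spleen libraries at 21.7 CPM or less.

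The members did not vary alike among the tumor libraries. The coefficient of variation in tumor was 5.15% for Nr4a1, 4.76% for Nr4a2 and 16.7% for Nr4a3, where counting error alone gives 0.717%, 1.28% and 1.62%. Tumor replicate 3 was the lowest for Nr4a1 and Nr4a3 and the highest for Nr4a2, and the highest Nr4a3 value was 1.40 times the lowest. In spleen the coefficients were 2.14% for Nr4a1, 12.2% for Nr4a2 and 11.6% for Nr4a3, near the 3.59%, 11.1% and 12.2% that counting gives. For the 3 members, the spread among spleen libraries was thus near counting error at this depth, which was not tested.

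Levels can be compared between genes only per length, as RPKM (CPM divided by kilobases of annotated exon). On that scale Nr4a1 was the most abundant member in both tissues, at 150 ± 7.71 RPKM in tumor and 6.07 ± 0.13 RPKM in spleen (SD, n = 3 each). Nr4a2 followed with 40.4 ± 1.93 RPKM in tumor and 0.546 ± 0.0667 RPKM in spleen. Nr4a3 was lowest, with 17.3 ± 2.88 RPKM in tumor and 0.308 ± 0.0358 RPKM in spleen. In each library the order Nr4a1, Nr4a2, Nr4a3 held. In spleen the counts of Nr4a2 and Nr4a3 were few and close (92 and 72, 75 and 74, 75 and 56). The gap between them there thus depends on the exon lengths used. Summed, the family reached 214, 211 and 197 RPKM in tumor, against 6.88, 6.91 and 6.98 RPKM in spleen, a ratio of means of 30.0.

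The make-up of the family differed between tissues. Nr4a1 made up 72.9%, 72.0% and 71.6% of the summed RPKM in tumor, against 86.2%, 88.2% and 88.6% in spleen. Nr4a2 made up 17.9%, 19.6% and 21.2% in tumor, against 9.01%, 7.10% and 7.54% in spleen. The share of Nr4a3 was 9.29%, 8.398% and 7.20% in tumor, against 4.78%, 4.75% and 3.82% in spleen. No tumor value of any share overlapped a spleen value. Each of the 6 share and sum measures compared gave p = 0.1 in a two-sided exact permutation test (adjusted p = 0.1 over the 6), the smallest that 3 libraries against 3 can give, so none can pass 0.05.

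Ratios of counts within a library need neither scaling nor length. Nr4a2 stood at 0.283, 0.314 and 0.342 counts per Nr4a1 count in tumor, against 0.121, 0.0937 and 0.0990 in spleen, a 3.001-fold higher ratio in tumor. Nr4a3 stood at 0.218, 0.199 and 0.172 per Nr4a1 count in tumor, against 0.0952, 0.0925 and 0.0741 in spleen, a 2.25-fold higher ratio. Both differences were far larger than the spread between libraries and reached the smallest possible exact permutation p of 0.1 (adjusted p = 0.15 over the 3 ratios). Nr4a2 over Nr4a3 was 1.30, 1.58 and 1.99 in tumor, against 1.28, 1.01 and 1.34 in spleen. These values overlapped, and the 1.33-fold difference did not hold up against the spread (exact permutation p = 0.2, adjusted p = 0.2).

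**Figure D3:**
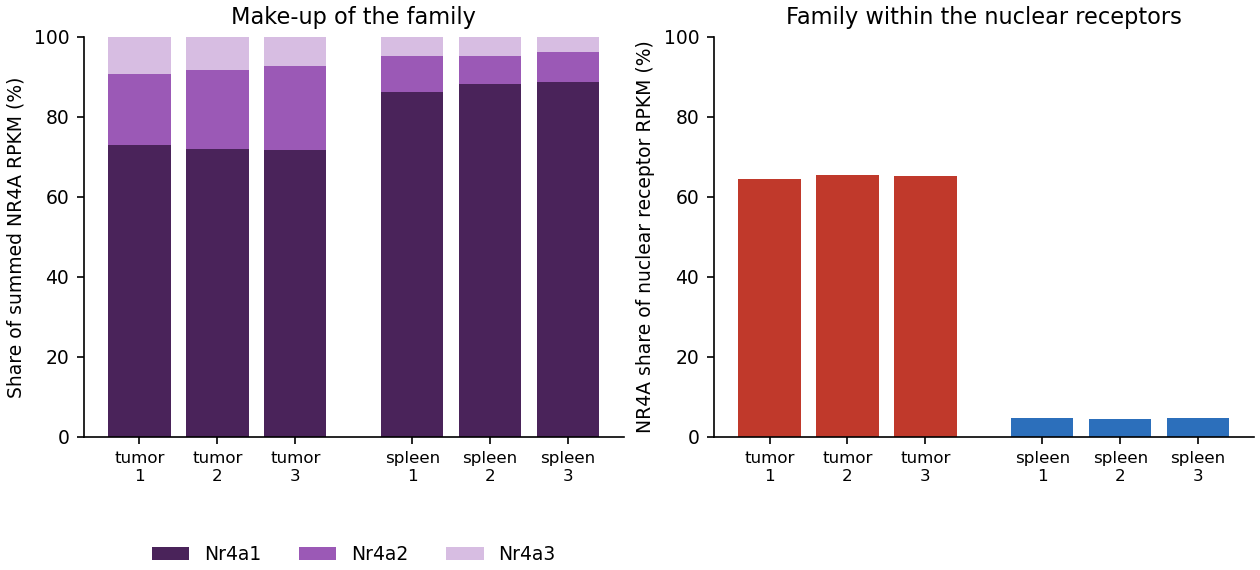
Left, share of each member in the summed NR4A RPKM of each library, in percent; right, share of NR4A in the summed RPKM of 49 nuclear receptor genes, in percent. Nr4a1 takes 71.6% to 72.9% of the family in tumor and 86.2% to 88.6% in spleen, and the family takes at least 64.4% of nuclear receptor RPKM in tumor and at most 4.62% in spleen.

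Mice have 49 nuclear receptor genes, so the family was set beside the other 46. NR4A made up 64.4%, 65.3% and 65.1% of all nuclear receptor RPKM in tumor, against 4.62%, 4.47% and 4.62% in spleen. In tumor, Nr4a1 ranked 1, Nr4a2 2 and Nr4a3 5 of the 49 by mean RPKM. Ahead of Nr4a3 were also Nr1h2, which encodes the oxysterol receptor LXR beta (37.8 RPKM in tumor, 38.7 RPKM in spleen), and Rxrb, a retinoid X receptor (22.9 RPKM in tumor, 31.2 RPKM in spleen). In spleen the same order put Nr1h2 at 1, Rxrb at 2 and Rara, a retinoic acid receptor, at 3, while Nr4a1 ranked 7, Nr4a2 19 and Nr4a3 21. The other nuclear receptors summed to 119, 112 and 106 RPKM in tumor, against 142, 148 and 144 RPKM in spleen.

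Of the other 46, 23 passed the filter on low counts and 8 had no count in any library. Of these 23, 3 rose and 11 fell in tumor and 9 were not called, beside 34.8% higher and 35.9% lower among all genes. Their median log2 fold change was -0.35. Esr1, the estrogen receptor alpha gene, had the largest rise of the 23, to 25.05 ± 0.67 CPM in tumor, against 2.603 ± 0.20 CPM in spleen (log2 fold change 3.29, SE 0.10, adjusted p = 1.9e-10). The other 2 that rose were Nr6a1 (1.07), the germ cell nuclear factor gene, at under 2 CPM, and Nr2f6 (0.46), a repressor of cytokine genes in T cells. Nr1h3, which encodes LXR alpha and is typical of macrophages, fell to 0.915 ± 0.228 CPM in tumor, against 18.003 ± 0.25 CPM in spleen (-4.27). Rxra fell by 2.02 on the log2 scale. Macrophage and monocyte markers fell in the same libraries, 12 of 12, and their part in these falls was not tested. The glucocorticoid receptor gene Nr3c1 averaged 64.8 ± 8.12 CPM in tumor, against 74.5 ± 0.74 CPM in spleen, which missed the threshold (adjusted p = 0.060). It was called lower without tumor replicate 3 (adjusted p = 0.0017), and also with upper quartile scaling, library totals only, a minimum count of 50 or a replicate block.

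**Figure D4:**
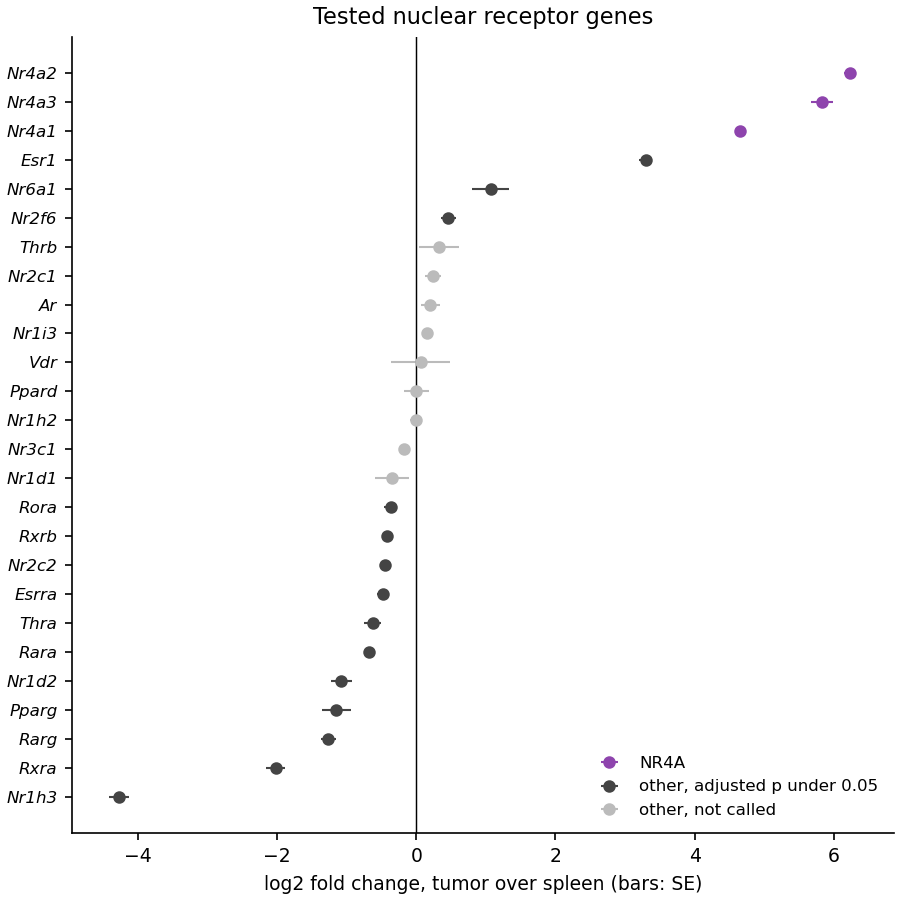
Log2 fold change, tumor over spleen, of the 26 nuclear receptor genes that could be tested, with SE. The 3 NR4A genes lie between 4.65 and 6.24, Esr1 at 3.29 and the other 22 at 1.07 or less.

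The calcineurin, NFAT, MAP kinase, MEF2, CREB and SRF routes are known to induce the family, though not every gene in them is an inducer. Of 28 genes of these routes, all tested, 8 rose, 12 fell and 8 did not pass. This is near the 34.8% higher and 35.9% lower among all genes tested. Their median log2 fold change was -0.15, against -0.02 for all genes. Crem, a CREB relative with activating and repressing isoforms, rose most, to 46.7 ± 4.31 CPM in tumor, against 7.15 ± 0.16 CPM in spleen (log2 fold change 2.73, SE 0.08, adjusted p = 3.0e-10). Camk4, a calcium-dependent kinase that acts on CREB, rose by a log2 fold change of 1.05, Nfatc1 by 0.58 and Atf1, of the CREB family, by 0.56. Creb1 itself fell by 0.65 on the log2 scale. The NFAT genes Nfatc2 (-1.25) and Nfatc3 (-0.93) and the calcineurin subunit gene Ppp3ca (-1.10) fell as well.

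Mef2d, a MEF2 factor that acts on Nr4a1 in T cells, averaged 142 ± 11.1 CPM in tumor, against 154 ± 4.43 CPM in spleen, which missed the threshold (adjusted p = 0.28). Of the alternatives tried, it passed as lower only without tumor replicate 1 (-0.15, adjusted p = 0.030). Mef2c had 11 tumor counts in all, against 2753 spleen counts (-7.91 on the log2 scale). It is expressed by B cells, whose 12 markers fell in the same libraries, and their part in its fall was not tested.

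Protein partners and coregulators were mostly lower or not called. Of 19 genes, 18 were tested, 2 rose, 11 fell and 5 did not pass (median log2 fold change -0.24), where 34.8% of all genes were called higher and 35.9% lower. The retinoid X receptors that can pair with NR4A1 and NR4A2 fell: Rxra to 7.35 ± 1.73 CPM in tumor, against 30.5 ± 0.72 CPM in spleen, and Rxrb to 90.9 ± 7.91 CPM in tumor, against 124 ± 3.01 CPM in spleen (-0.42). Rxrg, with 0 tumor counts and 21 spleen counts, was not tested. The summed CPM of B cell, macrophage and dendritic cell markers was higher in spleen, as above. The acetyltransferase gene Ep300 fell by 0.76 on the log2 scale. Trim28, a corepressor, rose to 167 ± 9.82 CPM in tumor, against 84.03 ± 1.71 CPM in spleen (log2 fold change 1.02). Hdac7, a deacetylase that represses Nr4a1 in thymocytes, averaged 206 ± 19.4 CPM in tumor, against 216 ± 4.21 CPM in spleen (not called, adjusted p = 0.66).

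Of 13 genes reported in other work to respond to gain or loss of NR4A in lymphocytes, 8 rose, 3 fell and 2 did not pass (median log2 fold change 0.65), where 34.8% of all genes were called higher, 35.9% lower and 70.7% in either direction. The chemokine genes Ccl3 and Ccl4, which NR4A proteins restrain in B cells, rose most, by log2 fold changes of 7.86 and 7.56. Pdcd1, which encodes PD-1, rose by 5.04 and Havcr2, which encodes TIM-3, by 4.16. Irf4, which NR4A1 has been reported to repress in CD8+ T cells, rose by 2.56 and Myc by 1.19. Smaller rises were seen for Tox (0.65) and the death ligand gene Fasl (0.62). Runx3, another gene reported as repressed by NR4A1, fell by 0.40, Batf fell by 0.40, and Tox2 fell by 2.19 at under 2 CPM in both tissues. Foxp3 (-0.02), the regulatory T cell factor, and Tnfsf10 (-0.10) did not pass.

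Of 27 immediate early genes, 17 rose, 5 fell and 5 did not pass (median log2 fold change 0.58), beside 34.8% higher and 35.9% lower among all genes. Atf3 rose to 17.6 ± 0.50 CPM in tumor, against 0.997 ± 0.16 CPM in spleen (log2 fold change 4.16, SE 0.13, adjusted p = 3.0e-10), and Egr1 to 150 ± 3.93 CPM in tumor, against 38.1 ± 1.13 CPM in spleen (2.005). Egr2 rose by 2.82, Egr3 by 2.70, Fosl1 by 3.49 and Fos by 2.10 on the same scale. Egr4, with 130 tumor counts and 2 spleen counts, is too sparse for a fold. Apart from Egr4, no gene of this list rose by as much as any NR4A member. Btg2 fell by 0.76, Zfp36 by 0.83, Ier5 by 0.97, Ier2 by 0.49 and Klf6 by 0.32 on the log2 scale. Junb, with 282 ± 14.5 CPM in tumor, against 300.1 ± 16.9 CPM in spleen, was not called (adjusted p = 0.41).

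Nr4a1 and many immediate early genes are also known to respond to tissue dissociation, as heat shock genes do. All 11 heat shock genes examined rose (median log2 fold change 1.66), beside 34.8% of all genes, and their summed level was 6109 to 6453 CPM in tumor and 2381 to 2422 CPM in spleen. Hspa1a had 488, 376 and 338 CPM in tumor, against 5.39, 5.31 and 6.13 CPM in spleen, and Hspa1b, a near-identical copy whose separate value is uncertain, 485, 376 and 339 CPM in tumor, against 5.93, 5.95 and 6.92 CPM in spleen. Tumor replicate 1 was the highest for these and for Nr4a1 and Nr4a3, and the lowest for Nr4a2. Whether handling of the tissue adds to the NR4A levels was not tested.

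**Figure D5:**
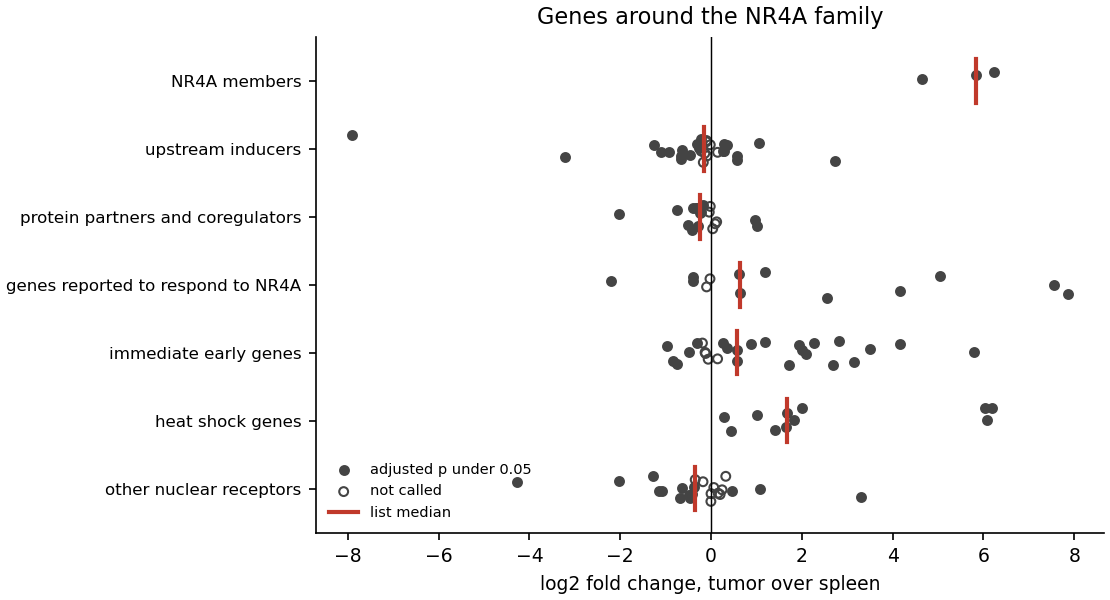
Log2 fold change, tumor over spleen, of each tested gene in the family and in 6 lists around it; filled points passed an adjusted p of 0.05, open points did not, and the red line is the list median. The median is 5.84 for NR4A, 1.66 for heat shock genes, 0.65 for genes reported to respond to NR4A, 0.58 for immediate early genes and below 0 for the other 3 lists.

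The genes whose profile over the 6 libraries was nearest to each member were found by Euclidean distance between log2(CPM + 1) values centred on each gene's mean, among 8213 genes with a mean of at least 10 CPM. For Nr4a2 the nearest was Tnfrsf9, which encodes the costimulatory receptor 4-1BB (distance 0.20), with 864, 887 and 886 CPM in tumor, against 15.5, 15.01 and 14.3 CPM in spleen. Spry1, a feedback inhibitor of receptor signalling (0.33), Hspa1b (0.55), Hspa1a (0.60) and Cables1 (0.62) came next. For Nr4a3 the nearest was Tnfrsf4, which encodes the costimulatory receptor OX40 (0.30), with 96.6, 94.8 and 88.6 CPM in tumor, against 1.67, 1.86 and 1.65 CPM in spleen. It was followed by Cables1 (0.57), Pdcd1 (0.61), Spry1 (0.62) and Hspa1l (0.71).

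For Nr4a1 the nearest were Utf1 (0.16), the protease inhibitor gene Serpine2 (0.20), the chemokine receptor gene Ccr8 (0.23), Cnih2 (0.33) and Hspa1l (0.34). The added 1 draws low genes together: Utf1, at 0.54 ± 0.065 CPM in spleen, had a fitted log2 fold change of 5.99, above the 4.65 of Nr4a1. The members were not each other's nearest genes. Nr4a2 and Nr4a3 ranked 7 in each other's lists (distance 0.77), Nr4a3 ranked 18 from Nr4a1 (0.83) and Nr4a2 ranked 28 from Nr4a1 (1.41). These distances describe 6 libraries in 2 groups and mostly reflect the size of the difference between tissues.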

How the data were processed

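RNA of sorted P14 cells was read as single reads of 50 bp. Named in the submitters' processing notes are STAR 2.3, bcl2fastq 2.20.0.422, the counter featureCounts and the build mm10. Not given in the sources used here are the annotation counted and how strand and multi-mapping reads were handled. The authors deposited whole-number counts per gene, without normalization; no row lacked a gene. Symbols, exon lengths and coordinates came from GENCODE M21 (mm10): 55154 of 55335 identifiers had a symbol. Promoters came from RefSeq.

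The test on counts was the quasi-likelihood test of edgeR 4.0.16 under R 4.3.3 (TMM scaling, tissue as the factor, filterByExpr with a minimum count of 10 and total of 15), adjusted by Benjamini-Hochberg over 19783 genes at 0.05. SE is the absolute log2 fold change over the square root of F. The procedure was tested on simulated counts. Single values were compared by two-sided exact permutation tests (SciPy 1.17.1); count ratios had 0.5 added to both counts. DESeq2 1.42.0 and limma 3.58.1 (voom) were alternatives, as were other scalings and filters and leaving out libraries. The planned protein comparison was not run.

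Pairs of tumor libraries differed by a chi-square per degree of freedom of 8.38 to 30.4, and pairs of spleen libraries by 2.11 to 3.30, so no library was a copy. Nothing in the labels ties a library to a mouse of its own: the spread behind each p-value is that between these samples and may be technical.

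The members and gene lists were chosen with earlier results of these data known. Named were all members, the retinoid X receptors, the 2 members of each list with the smallest p in each direction, those spelling out counts of 5 or fewer, the 5 nearest profiles of each member, and the highest marker of other cell types where given. Other genes were named after their values were seen, and some list members are not reported here.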

Additional observations from a re-analysis of the deposited data

How the results depend on the processing

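The 3 NR4A rises kept their direction and their side of 0.05, and the counts of calls over all genes and in the 6 pathway lists stayed within 1.5 times the reported count, under 3 other scalings, no filter or a minimum count of 50, DESeq2, limma-voom, a replicate block, leaving out each library, and scaling to CD8 T cell genes, which was chosen after seeing the data. The 3 ratios between members were recomputed with pseudocounts of 0 and 5, with a replicate block and without each library, and kept their direction. Log2 fold changes ranged from 4.60 to 4.71 for Nr4a1, 6.17 to 6.34 for Nr4a2 and 5.72 to 5.98 for Nr4a3. Without the filter the median of all genes shifted to -0.15. With the replicate block they were 4.65, 6.24 and 5.83. The labels do not say whether equal replicate numbers mark a pair. Deviations of equal-numbered libraries correlated at -0.026, 0.037 and 0.011, and the block gave 13772 calls against 13983. With 3 libraries a tissue, these values cannot settle the pairing. Exact permutation tests of 3 against 3 cannot go below 0.1, so the ratio tests say nothing about stability. Spleen values of Nr4a2 and Nr4a3, at 56 to 92 counts a library, are limited by depth.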

Other observations

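Within 200 kb of Nr4a1, 8 of 22 annotated genes could be tested, of which 1 rose and 5 fell. The nearest of them was Atg101, an autophagy gene 9.48 kb away, with 32.04 ± 2.59 CPM in tumor, against 42.9 ± 2.12 CPM in spleen (-0.39 on the log2 scale, adjusted p = 0.0011, edgeR, n = 3 each). Grasp, 21.5 kb away, was the gene that rose, with a log2 fold change of 0.43. Near Nr4a2, 3 of 7 genes could be tested and 2 rose: Gpd2, the mitochondrial glycerol phosphate dehydrogenase gene 114 kb away, to 65.4 ± 1.55 CPM in tumor, against 27.7 ± 1.87 CPM in spleen (1.27), and the non-coding A930012O16Rik (1.68) at under 2 CPM. Near Nr4a3, 3 of 7 genes could be tested: Erp44, an endoplasmic reticulum chaperone gene, rose (0.40), Stx17, of autophagosome fusion, fell (-0.56), and Invs did not pass (-0.03). These counts stand beside 34.8% higher and 35.9% lower among all genes tested. Each tested neighbour changed by less, in size, than the member beside it.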
